A study of Homo sapiens with 4 samples.

Results

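The 10 genes described here encode proteins that shape mitotic chromosomes: Ki-67 (MKI67), DNA topoisomerase II alpha (TOP2A) and the 8 subunits of the condensin complexes (SMC2, SMC4, NCAPD2, NCAPG, NCAPH, NCAPD3, NCAPG2 and NCAPH2). They were taken from the count table by gene symbol, as a set drawn up with earlier results of these data known, and all 10 were found among its 17791 genes. All 10 also passed the filter on low values, which kept 14851 genes.

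Ki-67 is a large protein that coats mitotic chromosomes, keeps them apart and is degraded in cells that leave the cycle, which makes it the standard stain for dividing cells in tumours, prostate cancer included. Topoisomerase II alpha passes one DNA duplex through another so that sister chromatids can separate. Its paralog topoisomerase II beta, encoded by TOP2B, does the same chemistry but is also made in cells that do not divide. Condensins are ring-shaped motors that fold chromatin into loops. Condensin I and condensin II share the ATPase pair SMC2 and SMC4. Condensin I adds NCAPD2, NCAPG and the kleisin NCAPH, a closing strap of the ring, and reaches chromosomes once the nuclear envelope has broken down. Condensin II adds NCAPD3, NCAPG2 and the kleisin NCAPH2, and is nuclear through the whole cycle.

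RNA was sequenced from 4 groups of human cells, with 1 library each. In 3 of them PC-3, a tumour line grown from a bone metastasis of prostate cancer, and BJ-5ta, foreskin fibroblasts immortalised with telomerase, were mixed at 5 to 1 and embedded for 15 days in a hydrogel as engineered prostate cancer tissues, called EPCaTs. The gels were poly(ethylene glycol)-fibrinogen alone (PF), PF with 2% excess poly(ethylene glycol) diacrylate (PF+2%PEGDA) and PF with 3% (PF+3%PEGDA), an additive the submitters used to tune the mechanics of the tissue. The fourth group was a flat coculture of the same lines (2D), whose day of harvest and cell ratio the labels do not give. No group received a drug. RNA came from more than 2 pooled EPCaTs, or from 1000000 cells in 2D, so every value below comes from 1 library and no difference has a replicate check.

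Depth was 13760301 to 15687894 counts a library. Levels are in CPM, counts per 1000000 of the scaled library size, at which 1 count was worth 0.05998 to 0.07337 CPM. Ratios between libraries are given as log2, with an exact 95% Clopper-Pearson interval that covers counting error only. A gene is called higher or lower when the ratio is at least 2-fold (1 on the log2 scale) and its interval excludes equality. Markers of the seeded cell types differed in level between gel and flat culture. Whether the share of each cell type differed was not tested. Fibroblast markers summed to 1284, 1054 and 832 CPM in PF, 2% PEGDA and 3% PEGDA EPCaTs, against 3900 CPM in 2D. Of the 15 tested, 10, 9 and 9 were lower in these EPCaTs than in 2D and 1 was higher in each. Lower calls made up 12%, 9.45% and 10.4% of all tested genes, and higher calls 16.5%, 12.4% and 12.1%. COL5A2 was the higher marker in PF, and S100A4 with PEGDA. PDGFRA, TWIST1 and FBN1 were called in no EPCaT, with ratios in PF of 0.17, 0.30 and -0.44. POSTN, the marker that failed the filter (1 count per 1000000 of the unscaled library total), had 2, 0 and 0 counts in gel and 15 in 2D. Epithelial markers summed to 4793, 5678 and 5337 CPM in the same EPCaTs, against 3782 CPM in 2D. Of the 8 tested, 1, 3 and 3 were higher in these EPCaTs than in 2D and 0 were lower, beside the same shares of all tested genes. The count of 1 in PF is near its share. CDH1 was higher in each EPCaT, and KRT8 and KRT19 with PEGDA. KRT8 in PF stood at the edge of the 2-fold rule without a call (1.00, 0.96 to 1.04). KRT7 and KRT18 had ratios to 2D of -0.38 to -0.03 in the EPCaTs. CTNNA1, which is deleted in PC-3 and so marks BJ-5ta, had 5.40, 6.19 and 8.29 CPM there, against 33.1 CPM in 2D. Of 6 endothelial and blood markers, 1 (PECAM1) passed the filter, at 65.4, 82.3 and 86.4 CPM in the EPCaTs, against 7.15 CPM in 2D.

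Many genes of late cell cycle carry a short promoter element called CHR, bound by the DREAM and B-MYB complexes, often near CCAAT boxes bound by NF-Y. RefSeq promoter windows on GRCh38.p14, from 250 bases before to 50 after a start site, were matched for 9 of the 10 genes (12 windows, since some genes have several starts). NCAPH2 had no entry. The CHR letters TTTGAA or TTCGAA, searched on both strands, occurred in 8 of 12 windows, against 16.4% of all 35116 windows. By gene, 8 of 9 had them in at least 1 window, a count for which no share over all genes was computed. In NCAPG2 they begin after the start, at position 36, and in SMC2 and NCAPD3 they begin 3 bases before it. The letters CCAAT occurred in 5 of 12 windows (MKI67, TOP2A, NCAPD2, NCAPD3 and NCAPH), against 34.6% of all windows. Of E2F-type letters, only TTTCGCG or TTTGGCG were searched, and they occurred in 0 of 12, against 3.19%. The 0 is near that share, and other spellings of E2F sites were not searched. Such matches describe letters, not binding. The 200 bases before the start are shown for MKI67 and TOP2A and for 3 condensin I genes that differ in what they hold. Each is written 5′ to 3′ on the gene's strand, with CHR and CCAAT letters (on the other strand TTCAAA and ATTGG) in capitals.
MKI67: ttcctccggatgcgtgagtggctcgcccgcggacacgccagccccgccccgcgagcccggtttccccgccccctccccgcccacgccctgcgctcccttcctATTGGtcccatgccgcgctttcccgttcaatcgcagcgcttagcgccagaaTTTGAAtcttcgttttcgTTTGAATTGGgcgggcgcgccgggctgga
TOP2A: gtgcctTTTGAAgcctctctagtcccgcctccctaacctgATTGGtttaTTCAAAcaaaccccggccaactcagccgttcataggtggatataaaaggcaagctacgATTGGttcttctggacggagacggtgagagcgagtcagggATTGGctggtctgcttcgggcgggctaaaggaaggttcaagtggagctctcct
NCAPD2: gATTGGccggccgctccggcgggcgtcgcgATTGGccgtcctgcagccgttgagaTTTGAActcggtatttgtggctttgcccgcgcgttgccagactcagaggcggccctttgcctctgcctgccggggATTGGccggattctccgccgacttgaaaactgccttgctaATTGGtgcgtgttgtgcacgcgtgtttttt
NCAPG: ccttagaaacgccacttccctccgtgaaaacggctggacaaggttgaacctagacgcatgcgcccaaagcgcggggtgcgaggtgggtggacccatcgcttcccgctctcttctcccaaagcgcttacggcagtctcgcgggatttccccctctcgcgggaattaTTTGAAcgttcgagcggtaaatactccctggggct
NCAPH: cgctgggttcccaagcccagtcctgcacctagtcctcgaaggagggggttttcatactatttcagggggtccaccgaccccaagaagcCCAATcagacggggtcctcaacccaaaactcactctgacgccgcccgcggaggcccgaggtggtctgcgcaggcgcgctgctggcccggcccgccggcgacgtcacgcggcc

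These stretches lie at chr10:128126424-128126623 (minus strand), chr17:40417897-40418096 (minus), chr12:6493902-6494101 (plus), chr4:17810779-17810978 (plus) and chr2:96335566-96335765 (plus). In MKI67 the CHR letters begin 47 and 29 bases before the start, and the second run shares 1 base pair with an ATTGG that begins 24 bases before it. NCAPG has CHR letters 35 bases before its start and no CCAAT, and NCAPH has a CCAAT and no CHR letters. TOP2A has CHR letters beginning 194 and 151 bases before its start. NCAPD2 has 1 CHR run, 145 bases before the start, among 4 ATTGG runs.

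**Figure D1:**
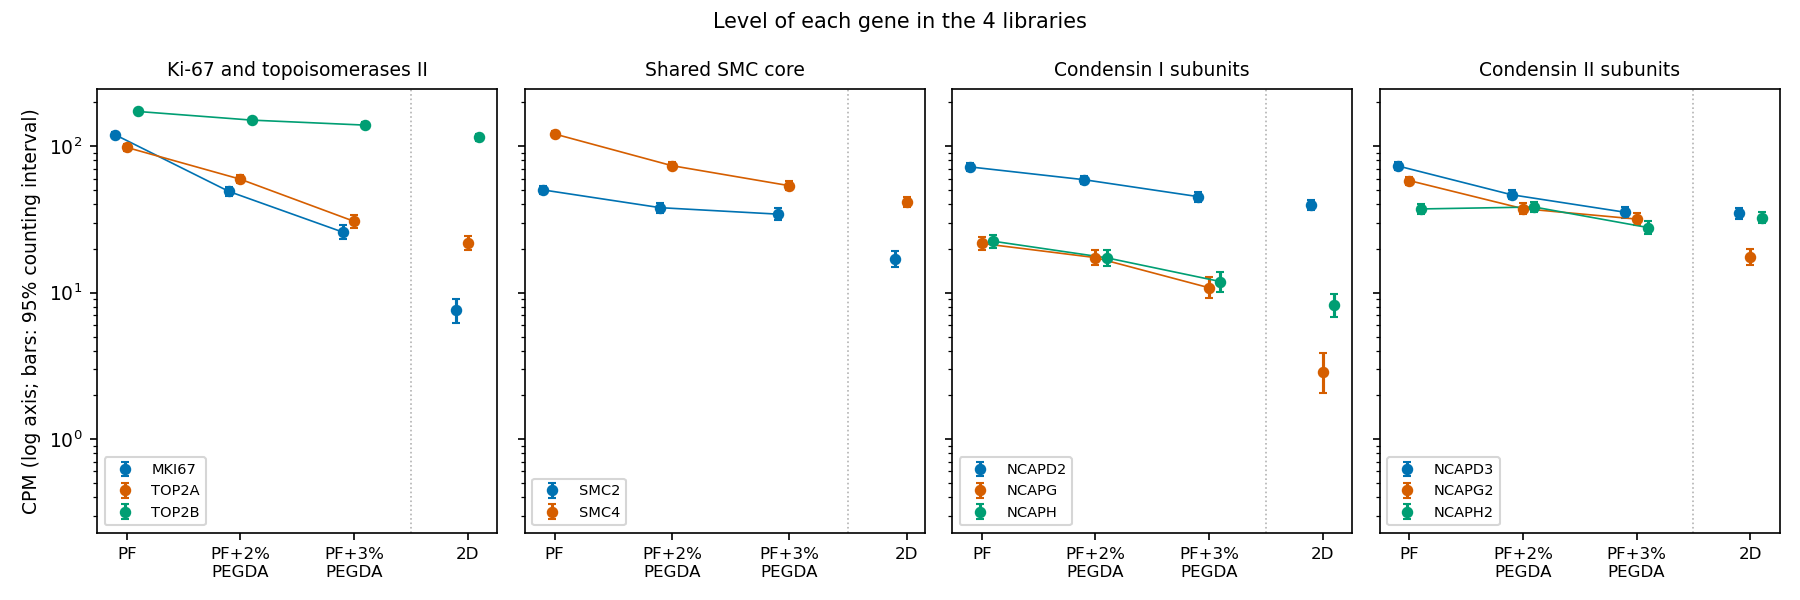
CPM (log axis) of each gene in the 4 libraries, with the 3 EPCaTs to the left of the dotted line and 2D to the right; bars are 95% counting intervals. MKI67 spans the widest range, 119 to 7.56 CPM, while NCAPH2 stays between 38.4 and 27.8 CPM.

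Each EPCaT was first set against the flat coculture, which asks how the level of each gene in gel differed from that in 2D. The 3 ratios share the 2D library, so their values stand side by side and are not independent.

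MKI67 was higher in all 3 EPCaTs, and by most in the gel without PEGDA. The gene lies on chromosome 10 (128096659 to 128126385, GRCh38, minus strand). Its level was 119, 49.03 and 25.9 CPM in PF, 2% PEGDA and 3% PEGDA EPCaTs, against 7.56 CPM in 2D, from 1990, 761 and 353 counts in gel and 111 in 2D. The 4 counting intervals did not overlap. The log2 ratio to 2D was 3.98 in PF (interval 3.70 to 4.27), 2.69 in PF+2%PEGDA (2.41 to 3.00) and 1.77 in PF+3%PEGDA (1.47 to 2.097).

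TOP2A was higher than in 2D in the PF and PF+2%PEGDA EPCaTs. It lies on chromosome 17 (40388516 to 40417950, minus strand). Its level was 98.1, 59.5 and 30.7 CPM in PF, 2% PEGDA and 3% PEGDA EPCaTs, against 21.7 CPM in 2D. The ratio to 2D was 2.17 (2.00 to 2.35), 1.45 (1.27 to 1.64) and 0.50 (0.28 to 0.71), so with 3% PEGDA the gene was above 2D by its interval but not called. The paralog TOP2B was called in no pair of libraries. It had 172.5, 150.6 and 139 CPM in the same EPCaTs, against 115 CPM in 2D.

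The shared ATPases SMC2 and SMC4 were both higher in the PF EPCaT than in 2D. SMC2 (chromosome 9, 104094260 to 104141417) had 50.3, 38.0 and 34.3 CPM in PF, 2% PEGDA and 3% PEGDA EPCaTs, against 17.03 CPM in 2D. It was called in all 3, at ratios of 1.56 (1.36 to 1.77), 1.16 (0.94 to 1.38) and 1.01 (0.79 to 1.24). The last of these sits at the edge of the 2-fold rule. SMC4 (chromosome 3, 160399274 to 160434962) had 121, 73.6 and 53.7 CPM in the EPCaTs, against 41.35 CPM in 2D. Its ratio was 1.55 (1.42 to 1.68) in PF, where it was called, and 0.83 and 0.38 with 2% and 3% PEGDA, where it was not.

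Among condensin I subunits, NCAPG stood highest over 2D and NCAPD2 was called in none of the EPCaTs. NCAPG (chromosome 4, 17810902 to 17844862), a HEAT-repeat subunit that holds DNA, had 21.65, 17.3 and 10.8 CPM in PF, 2% PEGDA and 3% PEGDA EPCaTs, against 2.86 CPM in 2D. The 2D value rests on 42 counts. The ratio of NCAPG was 2.91 (2.46 to 3.42), 2.58 (2.13 to 3.10) and 1.90 (1.41 to 2.45), all called. NCAPH (chromosome 2, 96335787 to 96373845) had 22.4, 17.3 and 11.9 CPM in the EPCaTs, against 8.24 CPM in 2D. It was called in PF (1.44, interval 1.15 to 1.75) and PF+2%PEGDA (1.06, 0.75 to 1.39), and had a ratio of 0.53 (0.18 to 0.88) with 3% PEGDA. NCAPD2 (chromosome 12, 6493356 to 6531955), the other HEAT-repeat subunit, had 72.1, 59.0 and 45.3 CPM in the EPCaTs, against 39.5 CPM in 2D. Its ratios of 0.87, 0.58 and 0.20 all had intervals above 0 and none reached 2-fold.

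Among condensin II subunits, NCAPG2 and NCAPD3 were higher in the PF EPCaT than in 2D, and NCAPH2 was called in none of the EPCaTs. NCAPG2 (chromosome 7, 158631311 to 158704829) had 58.2, 37.4 and 31.8 CPM in PF, 2% PEGDA and 3% PEGDA EPCaTs, against 17.4 CPM in 2D. Its ratios were 1.74 (1.54 to 1.94) and 1.10 (0.89 to 1.32), both called, and 0.86 (0.64 to 1.09) with 3% PEGDA, not called. NCAPD3 (chromosome 11, 134150119 to 134225454) had 73.2, 46.6 and 35.4 CPM in the EPCaTs, against 34.8 CPM in 2D. It was called in PF alone (1.07, 0.92 to 1.23), and at 3% PEGDA its interval held equality (0.02, -0.16 to 0.21). NCAPH2 (chromosome 22, 50508216 to 50523472) had 37.25, 38.4 and 27.8 CPM in the EPCaTs, against 32.6 CPM in 2D. Its ratios were 0.19 (0.02 to 0.37), 0.24 (0.06 to 0.41) and -0.23 (-0.43 to -0.03), so the sign turned at 3% PEGDA without any call.

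**Figure D2:**
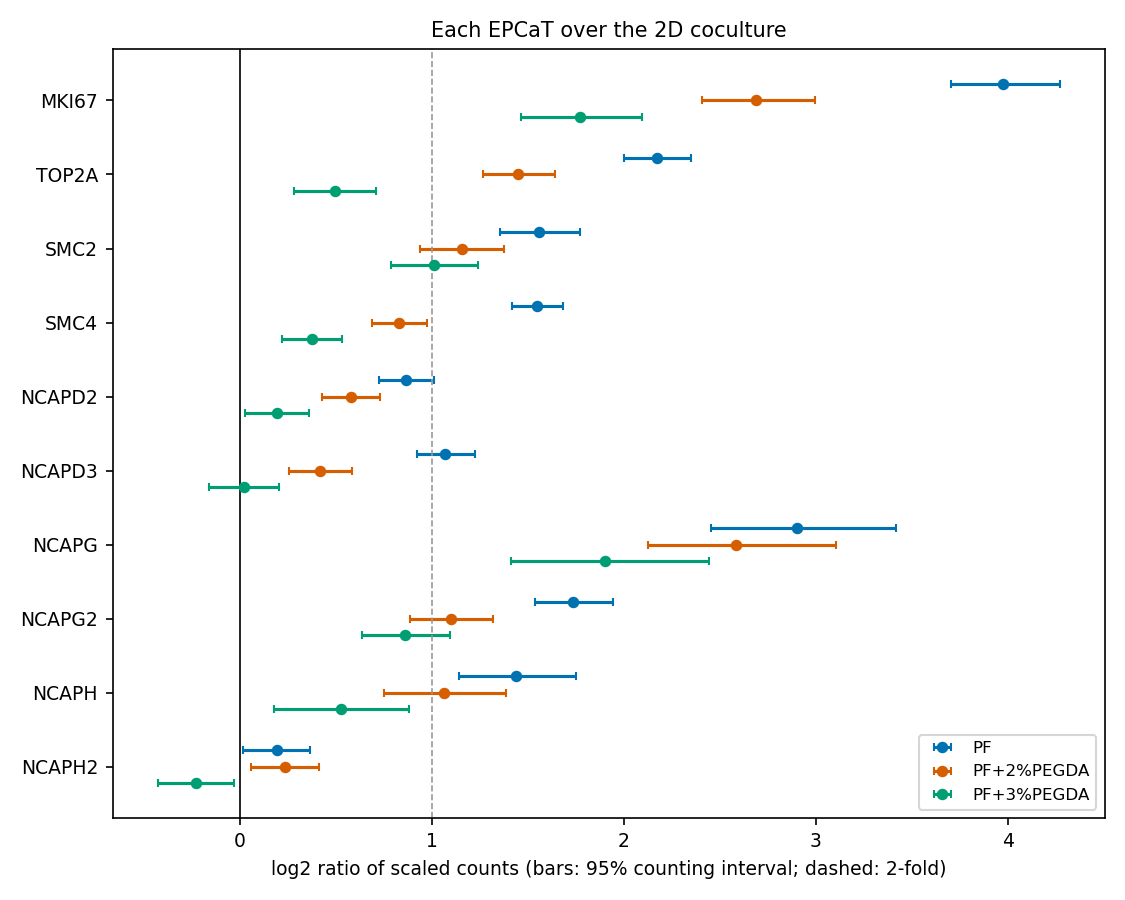
Log2 ratio of each EPCaT to the 2D coculture for the 10 genes; points are ratios, bars 95% counting intervals, dashed lines 2-fold. MKI67 (3.98 in PF) and NCAPG (2.91) lie furthest to the right and NCAPH2 lies at 0.24 or less.

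In counts, 8 of the 10 genes were higher in the PF EPCaT than in 2D and 0 were lower, where higher calls made up 16.5% of all tested genes and lower calls 12%. In PF+2%PEGDA 6 were higher and 0 lower (background 12.4% and 9.45%), and in PF+3%PEGDA 3 were higher and 0 lower (12.1% and 10.4%). The median log2 ratio of the 10 was 1.56, 1.08 and 0.51 in the 3 EPCaTs, and that of all tested genes 0.02, 0.01 and 0.00. Summed over the 10 genes the level was 674, 436 and 308 CPM in PF, 2% PEGDA and 3% PEGDA EPCaTs, against 223 CPM in 2D. In bulk RNA, fewer dividing cells and less of these transcripts per cell cannot be told apart. The fibroblast marker sums given above move opposite to these genes between gel and 2D, and their part in the difference was not tested. Among the EPCaTs alone both sums were lowest with 3% PEGDA. Single markers went both ways there. Of 15 fibroblast markers, COL1A2 and COL5A2 were lower in PF+3%PEGDA than in PF and 0 were higher (background 7.49% and 3.64%). Of the 15, 6 had ratios above 0. COL5A2 had 512.8 CPM in PF and 177.5 CPM with 3% PEGDA. CTNNA1 was above PF by its interval without a call, at 0.62 (0.21 to 1.035).

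The EPCaTs were next set against each other, which asks how the genes varied with the amount of PEGDA. In the PF+3%PEGDA EPCaT 5 of the 10 genes were lower than in PF (MKI67, TOP2A, SMC4, NCAPD3 and NCAPG) and 0 were higher, where lower calls made up 7.49% of all tested genes and higher calls 3.64%. MKI67 fell by 2.20 on the log2 scale (interval -2.37 to -2.04) and TOP2A fell by 1.68 (-1.84 to -1.52). SMC4 fell by 1.17 (-1.30 to -1.05), NCAPD3 by 1.05 (-1.21 to -0.90) and NCAPG by 1.00 (-1.29 to -0.73). NCAPG stands at the limit of the rule, and its call was lost under several other settings. The other 5 were below PF by their intervals without a call, at -0.91 for NCAPH, -0.87 for NCAPG2, -0.67 for NCAPD2, -0.55 for SMC2 and -0.42 for NCAPH2. The median of the 10 was -0.96, against 0.00 for all tested genes.

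The 2 steps of PEGDA can be read apart. In PF+2%PEGDA against PF, MKI67 was the single gene called lower, at -1.28 (-1.41 to -1.16), and 0 were higher (background 5.56% lower and 2.98% higher). In PF+3%PEGDA against PF+2%PEGDA 0 of 10 were called in either direction (background 2.39% lower and 1.87% higher). The largest ratios of this step were -0.95 for TOP2A (-1.13 to -0.79) and -0.92 for MKI67 (-1.11 to -0.74). Medians of the 10 genes were -0.52 and -0.46 in the 2 steps. A looser reading, chosen after the values were seen, asks whether the interval of each step lies below equality, whatever the fold. By that reading 8 of 10 were lower at both steps, all but SMC2 and NCAPH2, against 6.62% of all tested genes. The 7 of these other than NCAPD3 also stood above 2D at 3% PEGDA by their intervals, a pattern met by 1.85% of all tested genes. The steps share the PF+2%PEGDA library, so an error in it would move them in opposite directions.

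**Figure D3:**
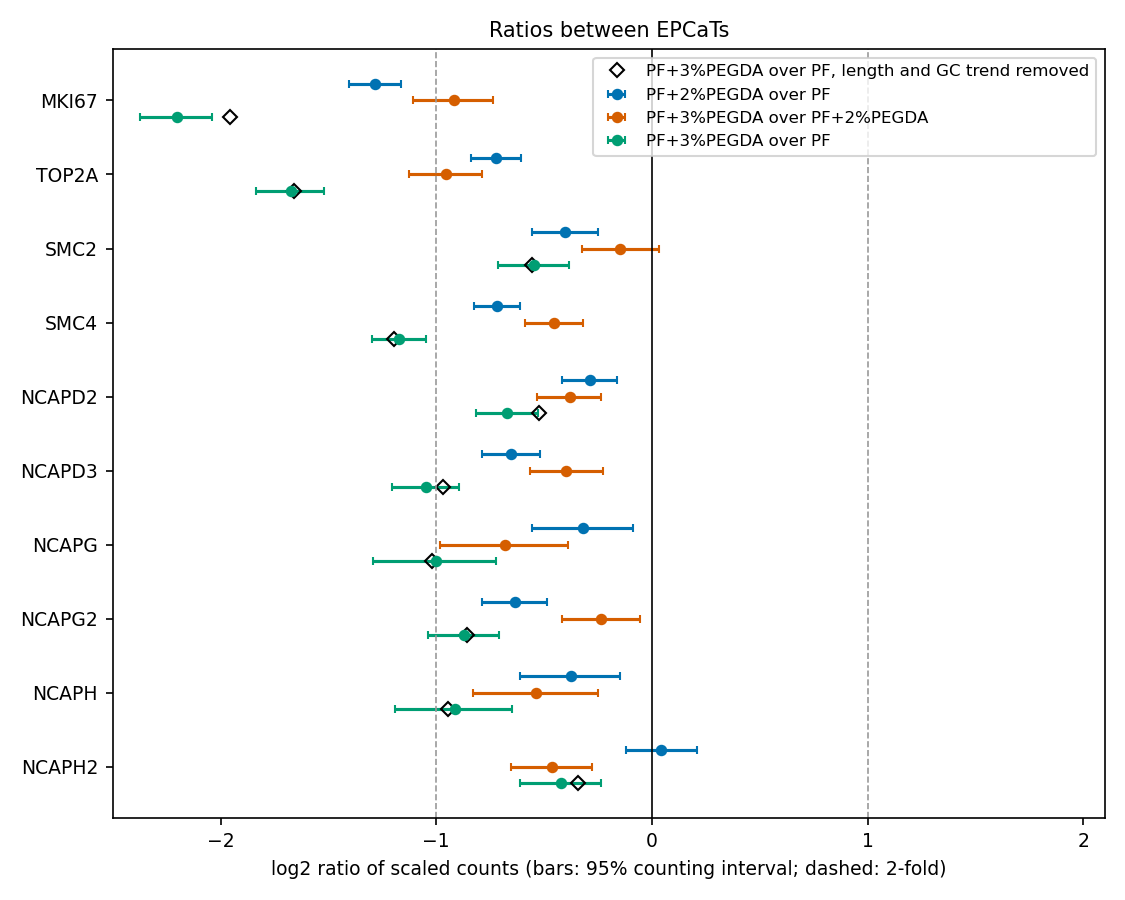
Log2 ratios between EPCaTs for the 10 genes, with 95% counting intervals; dashed lines mark 2-fold, and diamonds give PF+3%PEGDA over PF after a trend with transcript length and GC content was removed. For MKI67 that ratio is -2.20 before and -1.96 after, and for NCAPD2 -0.67 and -0.53. For the other genes both symbols lie closer together.

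SMC2 and NCAPH2 departed from the rest in different ways. For SMC2 most of the difference lay in the first step, at -0.40 (-0.56 to -0.25), and the second held equality (-0.15, -0.33 to 0.03). For NCAPH2 the first step held equality (0.04, -0.12 to 0.21) and the second did not (-0.47, -0.66 to -0.28). NCAPG2 likewise had the larger ratio in its first step, at -0.64 (-0.79 to -0.49) and -0.24 (-0.42 to -0.06). So had MKI67 (-1.28 and -0.92), SMC4 (-0.72 and -0.45) and NCAPD3 (-0.65 and -0.40). TOP2A, NCAPD2, NCAPG and NCAPH had the larger ratio in the second step.

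Ratios of 2 genes within a library do not depend on how libraries are scaled to each other. They show where the genes did not move by the same amount. The trend with transcript length and GC content described below was not removed from them. With it removed, MKI67 and TOP2A lay at -1.96 and -1.66 in PF+3%PEGDA against PF, where they were -2.20 and -1.68 before. MKI67 over TOP2A was 1.22, 0.82 and 0.84 in PF, 2% PEGDA and 3% PEGDA EPCaTs, against 0.35 in 2D. The ratio in PF was 3.49 times that in 2D (interval 2.78 to 4.42), and it did not differ beyond counting error between 3% and 2% PEGDA (1.02 times, 0.86 to 1.22). TOP2A over TOP2B was 0.57, 0.39 and 0.22 in PF, 2% PEGDA and 3% PEGDA EPCaTs, against 0.19 in 2D. In PF+3%PEGDA this paralog ratio was 0.39 times that in PF (0.34 to 0.44), and against 2D it was 1.16 times (0.99 to 1.37), an interval that holds 1. Along the gels the alpha form changed more than the beta form.

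The 3 pairs of subunits that set condensin I apart from condensin II did not follow a common course. The kleisin ratio NCAPH over NCAPH2 was 0.60, 0.45 and 0.43 in PF, 2% PEGDA and 3% PEGDA EPCaTs, against 0.25 in 2D. It was 2.37 times the 2D value in PF (1.87 to 3.04) and 1.69 times in PF+3%PEGDA (1.28 to 2.24). NCAPG over NCAPG2 was 0.37, 0.46 and 0.34 in the EPCaTs, against 0.16 in 2D, and its ratio in PF was 2.25 times that in 2D (1.59 to 3.29). In PF+3%PEGDA the same ratio was 0.91 times that in PF (0.72 to 1.15), an interval that holds 1. NCAPD2 over NCAPD3 went another way, at 0.98, 1.27 and 1.28 in the EPCaTs, against 1.14 in 2D. In PF+3%PEGDA it was 1.30 times that in PF (1.12 to 1.51), and between PF and 2D its interval held 1 (0.87 times, 0.75 to 1.00). Summed over their 3 own subunits, condensin I over condensin II was 0.69, 0.76 and 0.72 in the EPCaTs, against 0.60 in 2D. These were 1.15 (1.04 to 1.29), 1.28 (1.14 to 1.44) and 1.20 (1.06 to 1.36) times the 2D value. The sums are counts not divided by length, so they do not give the proportion of the complexes. NCAPD2 held 1202 of 1937 condensin I counts in PF and 580 of 743 in 2D.

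The ATPase pair also shifted. SMC2 over SMC4 was 0.42, 0.52 and 0.64 in PF, 2% PEGDA and 3% PEGDA EPCaTs, against 0.41 in 2D. In PF+3%PEGDA it was 1.54 times that in PF (1.33 to 1.78), and in PF it was 1.01 times the 2D value (0.85 to 1.20). Set against SMC2, NCAPG was 2.54 times (1.80 to 3.73) as high in PF as in 2D, whereas NCAPH was 0.92 times (0.71 to 1.19).

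**Figure D4:**
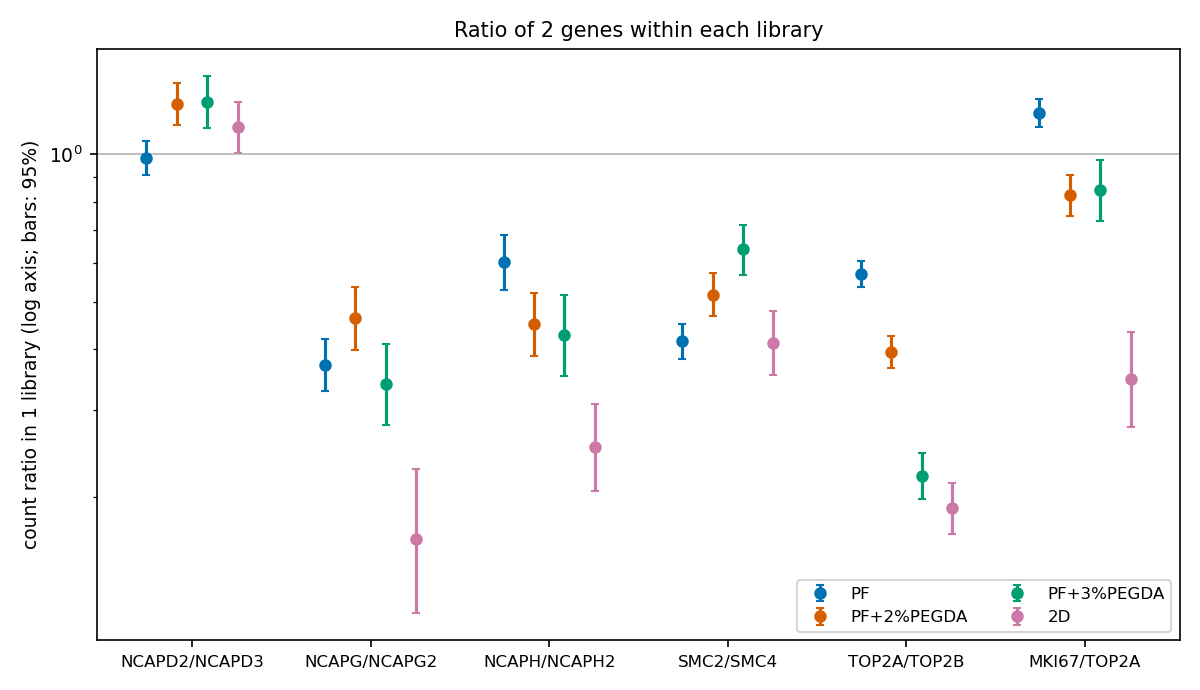
Count ratio of 2 genes within each library (log axis), with 95% counting intervals, for the PF, PF+2%PEGDA, PF+3%PEGDA and 2D libraries from left to right. Along the gels TOP2A/TOP2B is 0.57, 0.39 and 0.22 and SMC2/SMC4 is 0.42, 0.52 and 0.64, and NCAPG/NCAPG2 is 0.34 or more in the EPCaTs against 0.16 in 2D.

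Levels of different genes can be compared only per length, here as CPM per kb of the main transcript. On that scale SMC4 was first of the 10 in PF, at 22.1 CPM per kb, and NCAPH2 was first in PF+2%PEGDA, PF+3%PEGDA and 2D, at 18.9, 13.7 and 15.99 CPM per kb. MKI67, whose transcript of 12678 bases is the longest of the set, was seventh in PF at 9.41 CPM per kb and last in PF+3%PEGDA and 2D, at 2.04 and 0.60 CPM per kb. NCAPG was next to it in 2D at 0.61 CPM per kb, a difference within counting error. SMC2 lay below SMC4 in every library, at 8.39 against 22.1 CPM per kb in PF and 2.84 against 7.56 CPM per kb in 2D. TOP2B, at 32.0 CPM per kb in PF and 21.3 CPM per kb in 2D, was above all 10 in each library.

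The genes most alike in pattern were sought among 11725 other genes with a mean of at least 5 CPM, by the root mean square difference of log2 CPM centred on each gene's mean over the 4 libraries. Nearest to MKI67 were KNL1, a kinetochore scaffold (0.14), CLSPN, a replication checkpoint mediator (0.18), DLGAP5, a spindle protein (0.22), FANCD2 (0.27) and FANCA (0.28), both of DNA crosslink repair. KNL1 had 33.3, 15.6 and 9.46 CPM in PF, 2% PEGDA and 3% PEGDA EPCaTs, against 2.52 CPM in 2D. Of the other 9 genes of the set NCAPG came closest to MKI67, in 36th place at 0.47. Nearest to TOP2A were BUB1B, a spindle checkpoint kinase (0.03), TACC3, of the mitotic spindle (0.04), HMMR (0.07), the helicase BRIP1 (0.11) and the chromosome motor KIF4A (0.11). BUB1B had 31.1, 19.1 and 9.32 CPM in the EPCaTs, against 6.68 CPM in 2D. Nearest to the mean of the 8 condensin genes were EPPK1 (0.01), RBL1 (0.04), NCAPH itself (0.05), RFC3 (0.05) and FOXL1 (0.05). These distances rest on 4 libraries and describe them only.

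Genes that act on or beside these proteins were described from lists. Their counts stand beside the shares of all tested genes, which were 16.5% higher and 12% lower in PF than in 2D, 12.4% and 9.45% in PF+2%PEGDA, 12.1% and 10.4% in PF+3%PEGDA, and 3.64% higher and 7.49% lower in PF+3%PEGDA than in PF. Of 10 kinases and regulators of condensin or topoisomerase II, 7 were higher and 0 lower in PF than in 2D, 5 and 0 in PF+2%PEGDA, and 2 and 0 in PF+3%PEGDA, while 0 were higher and 3 lower in PF+3%PEGDA than in PF. Their medians were 1.18, 1.03, 0.22 and -0.86 in the same order. CDK1, which phosphorylates condensin in mitosis, had 87.8, 83.4 and 44.3 CPM in the EPCaTs, against 6.40 CPM in 2D. BIRC5 and INCENP, of the chromosomal passenger complex, had ratios to 2D in PF of 1.21 and 1.51, and TOPBP1 1.11. INCENP was lower in PF+3%PEGDA than in PF, at -1.22.

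Among 16 DREAM, B-MYB and FOXM1 regulators, 7, 5 and 5 were higher than 2D in PF, 2% PEGDA and 3% PEGDA EPCaTs, 0 were lower, and 4 were lower in PF+3%PEGDA than in PF. MYBL2, which encodes B-MYB, had 92.6, 73.1 and 50.8 CPM in the EPCaTs, against 6.27 CPM in 2D. FOXM1, another activator of mitotic genes, was called against 2D in no EPCaT, at 62.3, 52.9 and 27.5 CPM in the EPCaTs, against 50.2 CPM in 2D. It was lower in PF+3%PEGDA than in PF, at -1.18 (-1.35 to -1.01). RB1, RBL1 and RBL2, of the retinoblastoma family, were higher in PF than in 2D, at 1.02, 1.405 and 1.06. RBL1 was also higher than 2D in PF+2%PEGDA (1.05) and RB1 in PF+3%PEGDA (1.13). E2F1, E2F2 and E2F8 were higher than 2D in all 3 EPCaTs, at 2.155, 4.86 and 2.78 in PF. E2F2 rests on 4 counts in 2D. These E2F genes and FOXM1 were the 4 called lower in PF+3%PEGDA than in PF.

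Of 10 partners of Ki-67 and of the chromosome surface, 5 were higher and 2 lower in PF than in 2D. The counts were 3 and 1 in PF+2%PEGDA, and 1 and 1 in PF+3%PEGDA. The lower counts, and the 1 higher with 3% PEGDA, are near the shares of all tested genes. In PF the lower ones were NIFK, which binds the FHA domain of Ki-67, and NPM1, a nucleolar chaperone. Both also have roles in ribosome assembly. FBL and NCL, other nucleolar genes of the list, were not called against 2D in PF, at 0.19 and -0.37. NIFK had 24.9, 24.7 and 32.1 CPM in PF, 2% PEGDA and 3% PEGDA EPCaTs, against 71.5 CPM in 2D. NPM1 had 244, 380.0 and 323 CPM in the EPCaTs, against 583 CPM in 2D. KIF4A, a motor that works with condensin on chromosome arms, had 33.6, 24.6 and 11.0 CPM in the EPCaTs, against 8.58 CPM in 2D. KIF22, a motor that pushes chromosome arms outward, had a ratio of 1.18 in PF. In PF+3%PEGDA 4 partners were lower than in PF, KIF4A among them at -1.61, and 0 were higher.

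The other complexes of the SMC family were described in the same way. Of 16 cohesin genes, 4 were higher in PF than in 2D (median 0.60) and 4 lower in PF+3%PEGDA than in PF (median -0.39), beside 16.5% and 7.49% of all tested genes. The first of these counts is not far from that share. The 4 called in each case were ESCO2, CDCA5, ESPL1 and SGO1, which encode regulators of the ring. CDCA5, which encodes sororin, had 51.4, 39.7 and 22.9 CPM in the EPCaTs, against 11.9 CPM in 2D, and ESPL1, the separase gene, had 29.8, 16.5 and 7.85 CPM there, against 7.97 CPM in 2D. PTTG1, which encodes securin, was higher with 2% PEGDA (1.27), and ESCO2 had 240 counts in PF and 2 in 2D. The ring subunits SMC1A, SMC3 and RAD21, named after their values were seen, were called in no pair, with ratios to 2D in PF of 0.78, 0.05 and 0.44. Of 8 SMC5/6 genes, SMC5 and SLF1 were higher in PF than in 2D, at 1.16 and 1.33, and 0 were called between PF+3%PEGDA and PF. Of 5 other topoisomerases, TOP3B was higher in PF than in 2D (1.30) and lower in PF+3%PEGDA than in PF (-1.68), and TOP1MT was lower in PF+2%PEGDA and PF+3%PEGDA than in 2D (-1.02 and -1.47). The counts of these last 2 lists are near the shares of all tested genes. The differences between lists were not tested.

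Of 9 tested genes linked to cell cycle exit, 3 were higher and 3 lower in PF than in 2D (background 16.5% and 12%). In PF+2%PEGDA 3 were higher and 2 lower (12.4% and 9.45%). In PF+3%PEGDA 4 were higher and 1 lower, where all tested genes gave 12.1% and 10.4%. The 1 lower of 9 is near that share. CCNG2, a cyclin of arrested cells, had 140, 156 and 179 CPM in the EPCaTs, against 30.8 CPM in 2D. CDKN2B and CDKN1A, which encode inhibitors of cyclin-dependent kinases, were lower in PF than in 2D, at -1.35 and -1.27, and another inhibitor gene, CDKN2C, was higher at 2.08. CDKN1C, the inhibitor p57, was the single member called between PF+3%PEGDA and PF, higher at 1.12 (0.93 to 1.32), with 45.3 CPM in PF+3%PEGDA and 20.8 CPM in PF.

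Transcript length moved with the ratios across all genes. In PF+3%PEGDA against PF the median ratio was 0.29 for genes under 1.5 kb and -0.17 for those over 8 kb, and in PF against 2D it was -0.40 and 0.36. A smooth trend in length and GC content, fitted over 14149 genes, took up 4.89% and 2.55% of the deviance in these comparisons. Both share the PF library. The trend was largest in PF+2%PEGDA against PF, at 5.56%, where the medians of the same length classes were 0.32 and -0.20. In the comparisons without PF it took up 0.44% to 1.29%. In PF+3%PEGDA against PF+2%PEGDA the medians were -0.03 and 0.02. With the trend removed the medians of the 10 genes were 1.41, 1.05 and 0.41 in PF, 2% PEGDA and 3% PEGDA EPCaTs against 2D and -0.96 in PF+3%PEGDA against PF. MKI67 moved by most, to 3.63 in PF against 2D, -1.04 in PF+2%PEGDA against PF and -1.96 in PF+3%PEGDA against PF, and kept its calls. NCAPD3 lost its call in both comparisons, at 0.94 and -0.97, and SMC2 lost its call in PF+3%PEGDA against 2D, at 0.82.

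**Figure D5:**
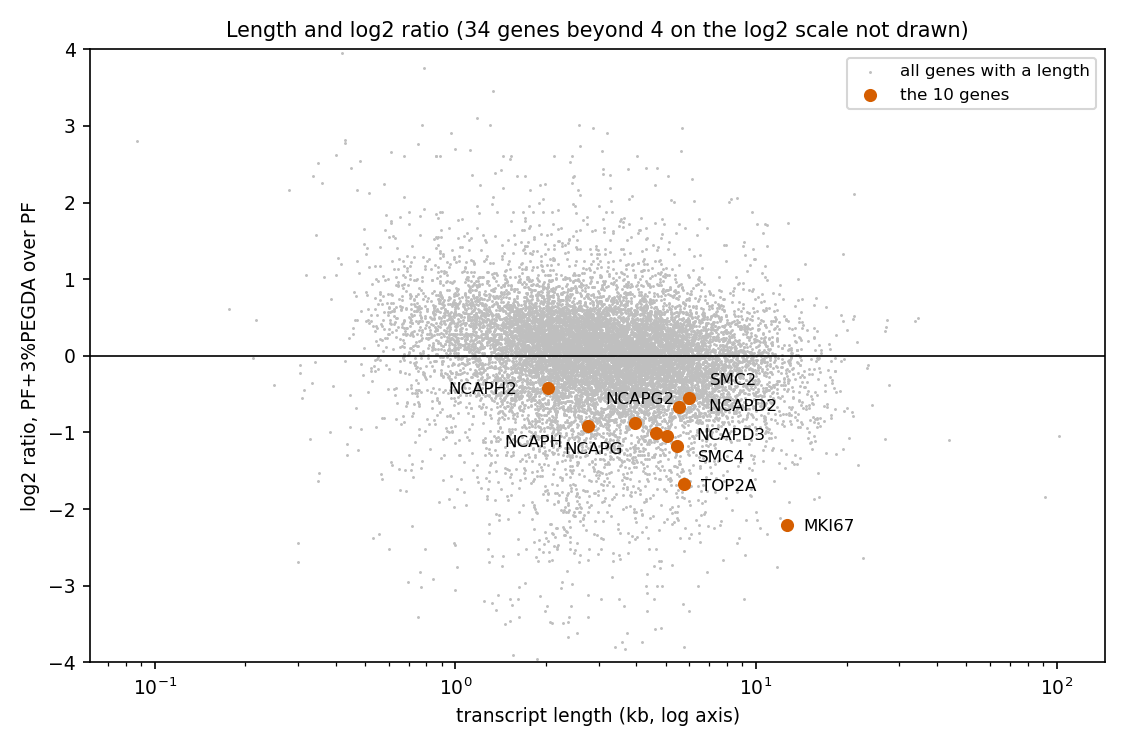
Log2 ratio of PF+3%PEGDA over PF against transcript length (log axis) for 14115 genes, with the 10 genes labelled; 34 genes beyond 4 on the log2 scale are not drawn. All 10 lie below 0, from NCAPH2 at -0.42 to MKI67 at -2.20, and the grey cloud slopes gently down with length.

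The kit does not mark strand, so reads from a gene cannot be told apart from those of a gene that overlaps it on the other strand. In the main transcript of SMC4 36.7% of exon bases overlap IFT80 or TRIM59, and in that of NCAPG 35.0% overlap LCORL. For NCAPD2 the share is 8.35% (MRPL51) and for NCAPD3 1.90%, while the other 6 have none. LCORL had 10.6, 8.31 and 10.6 CPM in PF, 2% PEGDA and 3% PEGDA EPCaTs, against 10.6 CPM in 2D, and was called in no pair with 2D. IFT80 had 34.2, 28.7 and 35.2 CPM in the EPCaTs, against 16.01 CPM in 2D, and was itself higher than in 2D in PF (1.10) and PF+3%PEGDA (1.14). TRIM59, which accounts for most of the overlap with SMC4, had 22.97, 23.2 and 18.1 CPM in the EPCaTs, against 15.8 CPM in 2D, and was called in no pair. Shared 50-base stretches with other genes made up at most 1.89% of any of the 10 transcripts.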

How the data were processed

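Estimated read counts per gene were deposited by the authors as 1 table of expected counts for 17791 genes in 4 libraries, not scaled between libraries. Per the submitters' processing notes, FastQC, STAR and Partek were used with build hg38. Versions, the annotation and the counting method are not given in the sources used here. Libraries were made with an unstranded TruSeq kit, per the labels' protocols. Totals were 13760301 to 15687894 counts a library. Between 18.2% and 19.9% of its values were not whole at a tolerance of 0.01, and values were rounded.

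Scaling factors were trimmed means of M-values (TMM) from edgeR 4.0.16 under R 4.3.3. The filter asked for 1 count per 1000000 of the unscaled total in any library and kept 14851 genes. Log2 ratios used a prior count of 0.5. With 1 library a group no test was possible and no p-value was computed. Calls need 2-fold and an exact 95% interval that excludes equality, a rule tested on simulated data drawn with Poisson error alone. Ratios of 2 genes used exact conditional intervals of the counts. Other steps used Python 3.11.15, scipy 1.17.1, pandas 2.3.3, numpy 2.4.6 and matplotlib 3.10.9, with mgcv 1.9.3 for the length trend. Lengths, coordinates and overlaps come from GENCODE release 29 on GRCh38.

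Alternatives were DESeq2 1.42.0 size factors, upper quartile scaling, total counts, no filter, at least 5 CPM, a prior of 2, values as deposited, 1.5-fold and 4-fold rules, and the trend removed. Named genes were all 10, TOP2B, up to 4 called genes of each list with the highest mean CPM, members called against the direction of the others, and the 5 nearest genes. Some other list genes, such as RBL1, the E2F genes, FBL and NCL, were named beyond this rule. The 10 genes and the lists were chosen with earlier results of these data known.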

Additional observations from a re-analysis of the deposited data

Results flagged for a closer look

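NCAPH2 lay on opposite sides of 2D in 2 of the EPCaTs. Its log2 ratio was 0.194 in PF against 2D (interval 0.02 to 0.37) and -0.227 in PF+3%PEGDA against 2D (-0.43 to -0.03), from 621 counts in PF, 379 in PF+3%PEGDA and 478 in 2D. It was the single gene of the 10 whose intervals excluded equality in both directions. The size of that difference is the ratio of PF+3%PEGDA to PF, -0.42 (-0.61 to -0.24). With 1 library a group the difference between the EPCaTs was not tested over samples. With the length and GC trend removed the values were 0.32 and -0.05.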

How the results depend on the processing

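Scaling, filter, prior count and rounding left most results in place. Under these alternatives and the length trend together, genes higher than 2D numbered 7 to 9 in PF, 6 in PF+2%PEGDA and 2 to 3 in PF+3%PEGDA. Genes lower numbered 4 to 6 in PF+3%PEGDA against PF, and 0 to 1 in PF+3%PEGDA against PF+2%PEGDA. The 1 in that last range is TOP2A with the trend removed (-1.03), against 0 as reported. Total counts as the only scaling shifted the median of all genes by 0.18 in PF and 0.11 in PF+2%PEGDA against 2D and by -0.10 in PF+3%PEGDA against PF, and called NCAPD2 in PF against 2D (1.05) and NCAPH in PF+3%PEGDA against PF (-1.02). NCAPG in PF+3%PEGDA against PF was lost with DESeq2 size factors (-0.997), a prior of 2 (-0.99) and values as deposited (-0.997). The fold rule mattered most. At 1.5-fold, 5 genes were lower in PF+2%PEGDA against PF, 3 in PF+3%PEGDA against PF+2%PEGDA and 8 in PF+3%PEGDA against PF. At 4-fold, 3 were higher in PF, 2 in PF+2%PEGDA and 0 in PF+3%PEGDA against 2D, while 0 were lower in PF+2%PEGDA against PF and 1 in PF+3%PEGDA against PF. No value changed sign among those called. Depth limits NCAPG most, with 42 counts in 2D. No paired analysis was possible because each group has 1 library.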
